A study of Mus musculus with 15 samples.

Results

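The genes described here are Hif1a and 9 further genes of oxygen sensing, Arnt, Vhl, Hif1an, Egln1, Egln2, Egln3, Bnip3, Pdk1 and P4ha1. They were chosen by name, and all 10 were found among the 11262 mRNA of a first table and among the 11211 mRNA of a second. RNA sequencing was used to follow them in CD8+ T cells of LCMV-P14 TCR transgenic mice, whose T cell receptor recognises the viral peptide gp33-41. The first table held 3 naïve libraries of cells sorted ex vivo, 3 libraries of cells whose TCR had been triggered for 24 h, and 3 libraries of cells activated in the same way in the presence of PI3Kdi, the PI3K p110δ inhibitor IC87114 at 10 µM. Activation used peptide at 100 ng/ml together with IL-12 at 2 ng/ml and IL-2 at 20 ng/ml. Lymph nodes of 3 mice aged 9 to 13 weeks were pooled for each replicate, and each pool was shared out over the 3 groups. The second table held 6 libraries of cytotoxic T lymphocytes (CTL), which had been activated for 48 h, grown for 4 days in 20 ng/ml IL-2, washed, and then given IL-2 again (3 libraries) or left without it for 24 h (3 libraries). The labels do not give the number of mice behind each CTL replicate. Activated cells of the first table were sorted as live CD8+ cells.

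HIF1A is the oxygen-regulated subunit of the transcription factor HIF1, and ARNT is its constitutive partner. When oxygen is present, the prolyl hydroxylases EGLN1, EGLN2 and EGLN3 mark HIF1A for the ubiquitin ligase of VHL, and the asparaginyl hydroxylase HIF1AN blocks its transactivation domain, so that HIF1A protein is set largely after translation and its mRNA is only a part of its control. In T cells HIF1A is known to be induced through the antigen receptor and mTORC1 also in normal oxygen, and to drive glycolytic genes. Egln3, Bnip3, Pdk1 and P4ha1 are known HIF1A targets: BNIP3 is a mitophagy receptor, PDK1 a pyruvate dehydrogenase kinase that limits the entry of pyruvate into the TCA cycle, and P4HA1 a catalytic subunit of collagen prolyl 4-hydroxylase. Protein was not measured in these tables.

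The DNA element bound by HIF1 has the core RCGTG, that is ACGTG or GCGTG. The bases before the annotated start of the 4 target genes are shown because their mRNA moved in different directions, with the core in capitals on either strand (on the other strand it reads CACGT or CACGC). Sequences are from the RefSeq promoter table of build GRCm38.p6, 5′ to 3′ on the strand of the gene, and they stop before the first base of the gene model.
Egln3 (chr12:54203875-54204124, minus strand): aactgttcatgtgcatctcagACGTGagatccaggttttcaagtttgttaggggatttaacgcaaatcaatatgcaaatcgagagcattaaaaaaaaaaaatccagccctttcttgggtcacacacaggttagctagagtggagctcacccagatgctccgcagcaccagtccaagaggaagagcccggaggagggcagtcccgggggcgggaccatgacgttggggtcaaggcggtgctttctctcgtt
Bnip3 (chr7:138909507-138909756, minus strand): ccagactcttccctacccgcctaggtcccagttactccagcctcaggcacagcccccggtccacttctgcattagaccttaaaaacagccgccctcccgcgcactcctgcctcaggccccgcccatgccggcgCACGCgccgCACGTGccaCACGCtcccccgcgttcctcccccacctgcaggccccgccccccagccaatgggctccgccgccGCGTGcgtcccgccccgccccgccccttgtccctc
Pdk1 (chr2:71872974-71873214, plus strand): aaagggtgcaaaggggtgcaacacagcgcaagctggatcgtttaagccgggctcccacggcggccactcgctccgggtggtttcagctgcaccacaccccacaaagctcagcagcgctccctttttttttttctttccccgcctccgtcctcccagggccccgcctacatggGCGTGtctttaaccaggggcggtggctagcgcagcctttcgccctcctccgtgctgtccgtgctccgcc
P4ha1 (chr10:59323046-59323196, plus strand): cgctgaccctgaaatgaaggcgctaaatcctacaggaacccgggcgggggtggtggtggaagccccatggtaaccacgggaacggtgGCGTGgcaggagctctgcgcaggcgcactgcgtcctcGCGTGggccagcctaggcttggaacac
These stretches held 1 core for Egln3, 5 for Bnip3, 1 for Pdk1 and 2 for P4ha1, and 2 of the 5 in Bnip3 overlap in the palindrome CACGTG, which is also an E-box and was found in 6.02% of all promoters. All 10 genes were matched in the table, with 12 annotated starts, of which 9 (75.0%) had a core within the 250 bases before them, against 38.6% of 32851 promoters searched on both strands. The upstream stretches of Vhl and Hif1an had none, and the second start of Pdk1 had none. A match is a description of letters and not of binding, which was not measured.

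Hif1a (Entrez 15251, chr12:73901324-73947554 in RefSeq of GRCm38.p6, as for the other coordinates) was at 33.35, 31.68 and 33.59 FPKM in the naïve libraries. After TCR activation it was at 150.15, 137.03 and 87.04 FPKM, and with PI3Kdi at 296.66, 305.90 and 211.20 FPKM (replicates 1, 2 and 3 in this order, here and below). FPKM are fragments scaled to exon length and library size, so they can be set side by side between genes. The 3 groups did not overlap, and the order was naïve, TCR, TCR with PI3Kdi. The group means were 32.9 ± 1.04, 124.7 ± 33.3 and 271.3 ± 52.2 FPKM (SD, n = 3). In CTL, Hif1a was at 117.75, 111.77 and 139.78 FPKM with IL-2 and at 73.43, 68.93 and 69.43 FPKM without, again with no overlap. The 2 tables were normalised separately, so levels in CTL were not tested against those of the first table. In bulk RNA, fewer cells of a type and less RNA per cell cannot be told apart.

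**Figure D1:**
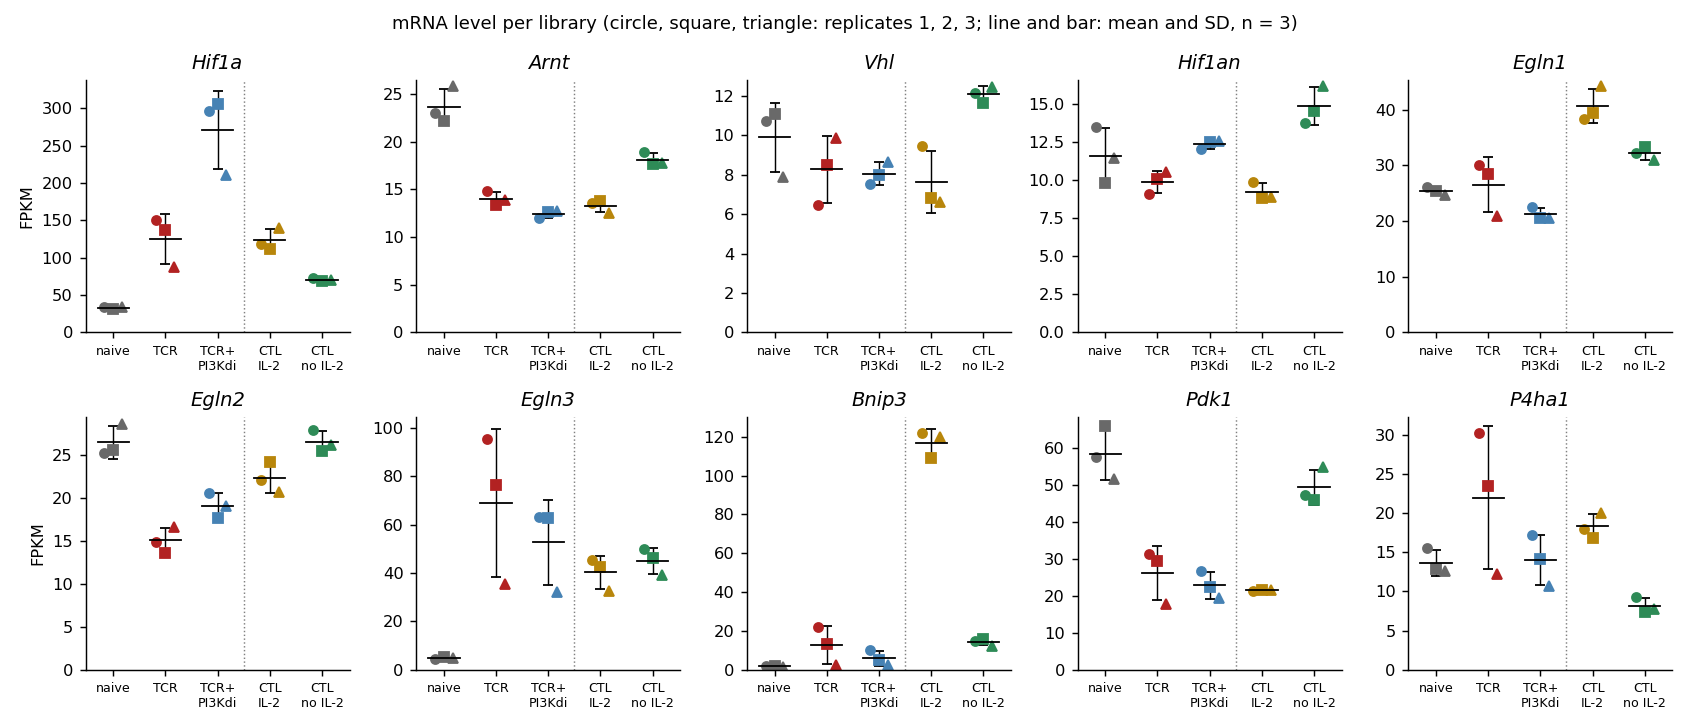
FPKM of the 10 genes in each library, on linear axes from 0; circles, squares and triangles are replicates 1, 2 and 3, and lines with bars are the mean and SD of 3 libraries. The dotted line separates the 2 tables; Hif1a runs from 31.68 to 305.90 FPKM across the first table, and Bnip3 stands highest in CTL with IL-2.

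Calls required an adjusted p under 0.05 (limma on log2(FPKM + 0.1), Benjamini-Hochberg over all genes of the table) and a fold change above 2 or below 0.5. By these limits TCR activation changed 4 of the 10 genes, where 48.7% of all 11262 mRNA were called, 25.0% higher and 23.7% lower. Hif1a, Egln3 and Bnip3 rose and Pdk1 fell. Hif1a rose 3.69-fold, or by 1.88 ± 0.19 (SE) on the log2 scale (limma adjusted p = 2.9e-06). With no limit on the fold, 80.8% of all mRNA passed the p-value threshold.

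Its partner Arnt (Entrez 11863, chr3:95434367-95497240) was at 23.01, 22.14 and 25.79 FPKM in naïve cells and 14.79, 13.35 and 13.88 FPKM after activation. These groups did not overlap, and the difference of -0.75 ± 0.09 (SE) on the log2 scale (limma adjusted p = 1.5e-05) did not reach 2-fold. Hif1a mRNA thus stood above Arnt mRNA in every library of the first table, and in naïve cells the gap was smallest. With PI3Kdi, Arnt was at 11.97, 12.65 and 12.74 FPKM.

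The 3 hydroxylases of the EGLN family differed in level and in direction. Egln1 (Entrez 112405, chr8:124908587-124949254), the main HIF1A hydroxylase in most tissues, was at 26.12, 25.31 and 24.65 FPKM in naïve and 30.13, 28.50 and 20.91 FPKM in TCR activated cells, with overlapping groups and an adjusted p of 0.74 in limma. Egln2 (Entrez 112406, chr7:27158658-27166802) was lower after activation, at 14.91, 13.63 and 16.62 FPKM against 25.23, 25.56 and 28.67 FPKM. Its log2 fold change of -0.81 (adjusted p = 2e-05 in limma) was under 2-fold. Egln3 (Entrez 112407, chr12:54178981-54203874), itself a HIF1A target, went from 4.58, 5.42 and 4.70 FPKM to 95.62, 76.24 and 35.62 FPKM. This rise of 3.68 ± 0.34 (SE) on the log2 scale (limma adjusted p = 1.1e-06) was the largest of the 10 genes in this comparison. In naïve cells Egln3 was the lowest of the 3 in every library, and in each activated library it was the highest.

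Vhl (Entrez 22346, chr6:113623994-113631634), the substrate receptor of the ligase, was at 7.87 to 11.06 FPKM in naïve and 6.47 to 9.87 FPKM in TCR activated cells (adjusted p = 0.18 in limma). Hif1an (Entrez 319594, chr19:44562854-44576274) was at 9.81 to 13.50 and at 9.09 to 10.54 FPKM (adjusted p = 0.12). For both genes the groups overlapped.

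The targets Bnip3, Pdk1 and P4ha1 went different ways on activation. Bnip3 (Entrez 12176, chr7:138890836-138909506) was at 2.11, 2.13 and 1.49 FPKM in naïve cells and at 21.93, 13.47 and 2.47 FPKM in TCR activated cells. All activated libraries were above all naïve ones, but replicate 3 only just. The log2 fold change of 2.21 ± 0.67 (SE, limma adjusted p = 0.010) lost its call without replicate 1 (adjusted p = 0.058) and without replicate 2 (adjusted p = 0.093). With the replicate number as a block, the adjusted p of Bnip3 was 6.3e-04 in limma. Pdk1 (Entrez 228026, chr2:71873215-71903858) fell from 57.65, 66.11 and 51.86 FPKM to 31.50, 29.41 and 17.93 FPKM, and the groups did not overlap. Its log2 fold change was -1.19 ± 0.20 (SE, limma adjusted p = 1.6e-04) and -0.93, under 2-fold, without replicate 3 of the TCR activated cells. P4ha1 (Entrez 18451, chr10:59323197-59373304) was at 15.61, 12.86 and 12.58 FPKM in naïve and 30.26, 23.43 and 12.24 FPKM in activated cells, with an adjusted p of 0.071 in limma. With the replicate block the adjusted p of P4ha1 was 0.010 in limma, at a log2 fold change of 0.59 that is under 2-fold. Its replicate 3 lay below every naïve library.

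**Figure D2:**
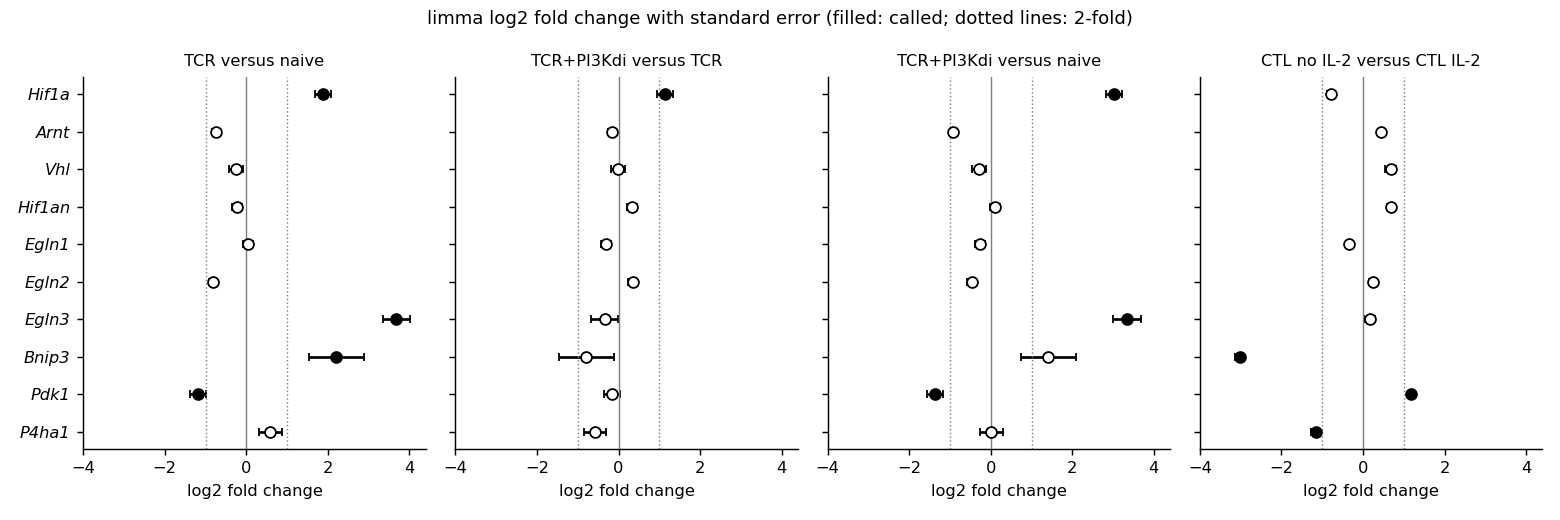
Log2 fold change of each gene in the 4 comparisons, with its standard error from limma (n = 3 per group); filled points were called and open points were not, and dotted lines mark 2-fold. Hif1a is the only filled point for PI3Kdi against TCR alone, at 1.14, and Bnip3 lies farthest to the left in CTL, at -3.03.

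Among the same 10 genes, PI3Kdi changed 1 against TCR activation alone, where 5.14% of all mRNA were called, 3.04% higher and 2.10% lower. That gene was Hif1a, whose rise with the inhibitor was known when the genes were chosen, so its values are given as a description. Within same-numbered pairs Hif1a was 1.98, 2.23 and 2.43 times its level without the inhibitor. The log2 fold change was 1.14 ± 0.19 (SE, limma adjusted p = 0.0023). With the replicate number as a block, the adjusted p was 9.5e-04 in limma. The call did not hold in every fit with fewer libraries. Without replicate 2 the adjusted p was 0.059 in limma. Without replicate 3 of the TCR activated cells the log2 fold change was 0.90, under 2-fold, in a fit no longer matched by pool. Against naïve cells, Hif1a with PI3Kdi was 8.12-fold higher (log2 fold change 3.02, adjusted p = 6.7e-08 in limma).

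The 4 targets did not rise with Hif1a. Egln3 was at 63.12, 62.60 and 32.35 FPKM with PI3Kdi, which was 0.660, 0.821 and 0.908 times its level without it (adjusted p = 0.54 in limma). P4ha1 was at 17.16, 14.13 and 10.73 FPKM, or 0.567, 0.603 and 0.877 times, so that all 3 pairs were lower for both genes. The adjusted p of P4ha1 was 0.19, and 0.049 in a fit with the replicate number as a block, at a log2 fold change of -0.58 that is under 2-fold. Bnip3 was at 10.15, 5.13 and 2.66 FPKM, or 0.463, 0.381 and 1.08 times, and Pdk1 at 26.70, 22.33 and 19.55 FPKM, or 0.848, 0.759 and 1.09 times. For these 2 genes the third pair went the other way from the rest. Their adjusted p were 0.47 and 0.60 in limma, and without replicate 3 Bnip3 was called lower, with a log2 fold change of -1.24 (adjusted p = 0.049). Without replicate 3 of the TCR activated cells alone, it was -1.71 (adjusted p = 0.026), and Bnip3 was then the only one of the 10 genes called. That fit kept replicate 3 with PI3Kdi, from the same pool and also the lowest of its group for Bnip3. Its groups were thus not matched by pool.

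Expressed per Hif1a mRNA of the same library, P4ha1 was at 0.202, 0.171 and 0.141 in TCR activated cells and at 0.0578, 0.0462 and 0.0508 with PI3Kdi. For Egln3 these ratios were 0.637, 0.556 and 0.409, against 0.213, 0.205 and 0.153. For Pdk1 they were 0.210, 0.215 and 0.206, against 0.0900, 0.0730 and 0.0926. The groups did not overlap for these 3 genes, and such ratios were not formed for other mRNA. For Bnip3 the ratios were 0.146, 0.0983 and 0.0284 in TCR activated cells and 0.0342, 0.0168 and 0.0126 with PI3Kdi, and here the groups overlapped, since TCR replicate 3 lay below replicate 1 with PI3Kdi. The ratio falls wherever Hif1a rises alone, and it was not tested.

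**Figure D3:**
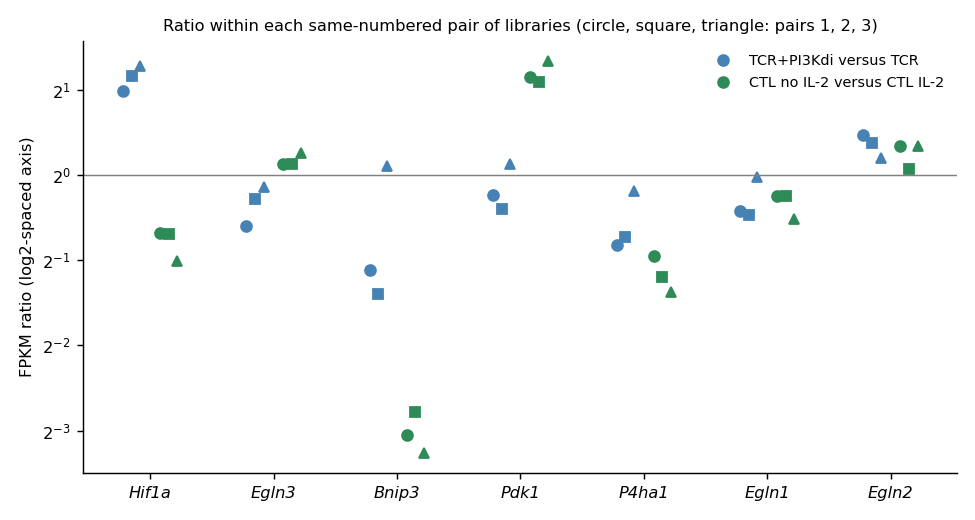
FPKM ratio within each same-numbered pair of libraries for 7 of the genes, on a log2-spaced axis; blue is TCR with PI3Kdi over TCR, green is CTL without IL-2 over CTL with IL-2, and circles, squares and triangles are pairs 1, 2 and 3. Blue Hif1a points lie between 1.98 and 2.43, while those of Egln3 and P4ha1 lie below 1, and green Bnip3 points lie lowest, between 0.104 and 0.145.

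Of the other regulators, Egln2 differed at the p-value threshold. It was at 20.64, 17.63 and 19.03 FPKM with PI3Kdi, above all 3 TCR libraries and below all 3 naïve libraries, with a log2 fold change against TCR of 0.34 ± 0.10 (SE, limma adjusted p = 0.044). With no limit on the fold, 17.5% of all mRNA passed that threshold. Hif1an was at 12.06, 12.51 and 12.60 FPKM, and every library was above the TCR group, but its adjusted p was 0.097. Arnt lay below the TCR group in every library (adjusted p = 0.25). Egln1 was at 22.49, 20.56 and 20.55 FPKM (adjusted p = 0.12) and Vhl at 7.54, 7.97 and 8.67 FPKM (adjusted p = 0.95), and both overlapped with the TCR group.

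Compared with naïve cells, PI3Kdi-treated activated cells had 3 of the 10 genes called, where 45.0% of all mRNA were, 23.6% higher and 21.3% lower, and 79.1% passed the p-value threshold alone. Hif1a and Egln3 rose and Pdk1 fell. Egln3 was 3.34 higher on the log2 scale (adjusted p = 3e-06 in limma) and Pdk1 -1.36 (adjusted p = 6.1e-05). Bnip3 had an adjusted p of 0.074 at a log2 fold change of 1.41, and the replicate block made it a call (adjusted p = 0.0091). All 4 comparisons of the first table and of CTL were fitted without that block, and those of the first table share libraries.

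In CTL, removal of IL-2 changed 3 of the 10 genes, where 28.2% of 11211 mRNA were called, 14.3% higher and 13.9% lower. Bnip3 and P4ha1 fell and Pdk1 rose. Bnip3 was at 122.05, 108.89 and 120.01 FPKM with IL-2 and at 14.68, 15.82 and 12.48 FPKM without. This log2 fold change of -3.03 ± 0.10 (SE, limma adjusted p = 7.8e-08) was the largest of the 10. P4ha1 was at 17.96, 16.88 and 20.05 FPKM with IL-2 and 9.32, 7.35 and 7.76 FPKM without (log2 fold change -1.16, adjusted p = 1.8e-05). Pdk1 was at 21.39, 21.63 and 21.71 FPKM with IL-2 and 47.46, 46.07 and 54.87 FPKM without (log2 fold change 1.19, adjusted p = 2.4e-06). The groups did not overlap for these 3 genes, nor for any other of the 10 except Egln3. How many of all mRNA had groups without overlap was not counted, and 71.9% passed the p-value threshold alone. The lack of overlap is therefore not read as particular to these genes.

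Hif1a itself was 0.576 times its level with IL-2 (log2 fold change -0.80 ± 0.09 SE, limma adjusted p = 4.7e-05), short of 2-fold. Egln3 was at 45.58, 42.40 and 32.75 FPKM with IL-2 and 49.92, 46.27 and 39.22 FPKM without, with overlapping groups and an adjusted p of 0.27, so that the EGLN with the strongest response to the TCR was not called here. Egln1 was lower without IL-2, at 32.28, 33.21 and 30.94 FPKM against 38.36, 39.38 and 44.17 FPKM (log2 fold change -0.34, adjusted p = 0.0048). Arnt, Vhl, Hif1an and Egln2 were higher, with log2 fold changes of 0.45, 0.68, 0.68 and 0.25 and adjusted p of 0.0012, 0.0018, 2.3e-04 and 0.030. All 5 were under 2-fold, and 71.9% of all mRNA passed the p-value threshold with no limit on the fold. Vhl was at 9.44, 6.81 and 6.61 FPKM with IL-2 and 12.14, 11.65 and 12.47 FPKM without, and Hif1an at 9.89, 8.86 and 8.94 against 13.79, 14.58 and 16.25 FPKM.

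Further genes of the pathway were counted in lists, and most of the genes named are among those with the largest called changes in their list. Over all mRNA, 25.0% were called higher and 23.7% lower on TCR activation. These shares were 3.04% and 2.10% for PI3Kdi against TCR, and 14.3% and 13.9% in CTL without IL-2. They are the background for the called counts of every list. The lists were written with earlier results of these data known, and many of the target genes share the low replicate 3 described below. The counts are therefore a description and not a test of the lists. Of 18 glycolytic targets in the first table, 13 rose and 0 fell on TCR activation (median log2 fold change 1.82, against 0.0054 over all genes). Hexokinase 2 (Hk2) was at 0.34, 0.23 and 0.56 FPKM in naïve and 122.78, 120.07 and 122.60 FPKM in activated cells, and it was called. With PI3Kdi 0 of the 18 were called by limma (median -0.36, against -0.0076 over all genes). At an unadjusted p under 0.05 in limma, 6 of them were lower and 0 higher, where 15.4% of all mRNA were lower and 16.1% higher. The fit without replicate 3 of the TCR activated cells, which is not matched by pool, called 2 lower. Hk2 with PI3Kdi was at 66.28, 56.89 and 65.24 FPKM, below every TCR library, at a log2 fold change of -0.96 (adjusted p = 0.0074 in limma) just under 2-fold. In CTL without IL-2, 10 of 18 fell and 0 rose (median -1.26), with 12 lower and 1 higher at an unadjusted p under 0.05 in limma, where 37.7% of all mRNA were lower and 36.3% higher. The lactate transporter Slc16a3 fell from 64.65, 66.76 and 83.62 FPKM to 7.88, 7.79 and 5.85 FPKM. In TCR activated cells this gene was at 81.22, 33.84 and 3.10 FPKM.

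Of 24 other HIF1A targets, 13 rose and 5 fell on TCR activation (median 1.503). Among those that fell were Ddit4, an inhibitor of mTORC1, and Narf. With PI3Kdi 4 fell and 0 rose (median -0.45), among them Bhlhe40, Ndrg1 and Ankrd37, and at an unadjusted p under 0.05 in limma 11 were lower and 0 higher, against the same 15.4% and 16.1% of all mRNA. Without replicate 3 of the TCR activated cells, a fit not matched by pool, 7 fell, and without replicate 2 of each group 2 fell. The transcriptional repressor Bhlhe40 was at 0.12, 0.41 and 0.26 FPKM in naïve cells, 131.74, 92.25 and 93.30 FPKM after activation, and 31.91, 22.65 and 24.33 FPKM with PI3Kdi. Its log2 fold change with PI3Kdi was -1.999 ± 0.27 (SE, limma adjusted p = 5.7e-04). Ndrg1 went from 14.37, 7.85 and 6.69 FPKM to 3.30, 3.15 and 3.50 FPKM with PI3Kdi. In CTL without IL-2, 8 fell and 2 rose (median -0.66), and Bhlhe40, Ak4 and Car12 were among those that fell, while Pygl and Narf rose.

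The mRNA of 11 genes that act in the degradation or stability of HIF1A protein formed a further list. On TCR activation 6 rose and 2 fell (median 1.39). The chaperone Hsp90aa1, which protects HIF1A, was at 98.80, 85.09 and 78.55 FPKM in naïve and 668.57, 888.95 and 766.53 FPKM in activated cells. With PI3Kdi 0 were called by limma (median -0.14), and 2 were lower and 0 higher at an unadjusted p under 0.05, which for the lower genes is near the 15.4% over all mRNA. Siah2, a ligase for the EGLN proteins, was at 11.90, 12.31 and 10.33 FPKM with PI3Kdi and 15.93, 14.55 and 14.11 FPKM without (log2 fold change -0.37, adjusted p = 0.037 in limma). In CTL without IL-2, 6 of the 11 fell and 0 rose (median -1.01; 3 higher at an unadjusted p under 0.05, against 36.3% of all mRNA), with Hsp90aa1 going from 420.03, 373.70 and 436.82 to 92.82, 85.04 and 70.19 FPKM. Siah1a fell and Siah1b rose on TCR activation, and since these paralogues are near-identical in sequence, their counts may share reads. Of 5 cofactors, 1 rose and 4 fell on activation, the riser being Apex1 and the fallers including Crebbp and Cited2, and 0 were called by limma with PI3Kdi (2 higher at an unadjusted p under 0.05, against 16.1% of all mRNA). Apex1 was the only cofactor called in CTL without IL-2, where it fell.

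Of 8 paralogues of the 10 genes, 2 rose and 3 fell on TCR activation, where 25.0% of all mRNA were called higher and 23.7% lower. Epas1, which encodes HIF2A, was at 2.22, 2.09 and 3.10 FPKM in naïve cells, 0.08, 0.12 and 0.07 FPKM after activation and 0.16, 0.32 and 0.19 FPKM with PI3Kdi, a range far below that of Hif1a. It fell by 3.75 on the log2 scale on activation (adjusted p = 9e-08 in limma). Pdk2, a sister kinase of Pdk1, was at 6.81, 7.20 and 7.83 FPKM in naïve cells, 0.56, 0.61 and 0.51 FPKM after activation and 1.38, 1.61 and 2.24 FPKM with PI3Kdi. It was the only paralogue of 8 called with PI3Kdi (log2 fold change 1.46, adjusted p = 4.1e-04 in limma), against 0 with a pseudocount of 1 and 2 with a pseudocount of 0.01. In CTL it rose from 1.15, 0.86 and 0.62 FPKM to 5.66, 6.49 and 7.75 FPKM without IL-2. Pdk3 rose on activation, to 32.16, 36.20 and 33.42 FPKM from 15.33, 16.96 and 13.96 FPKM, so that Pdk1 and Pdk2 fell while Pdk3 rose. P4ha2, a paralogue of P4ha1, rose from 0.13, 0.06 and 0.14 FPKM to 6.07, 2.52 and 0.38 FPKM. In CTL without IL-2, 3 of 9 paralogues rose and 1 fell, where 14.3% of all mRNA were called higher and 13.9% lower. The gene that fell was Arnt2, from 2.83, 2.69 and 2.11 FPKM to 0.15, 0.08 and 0.05 FPKM.

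**Figure D4:**
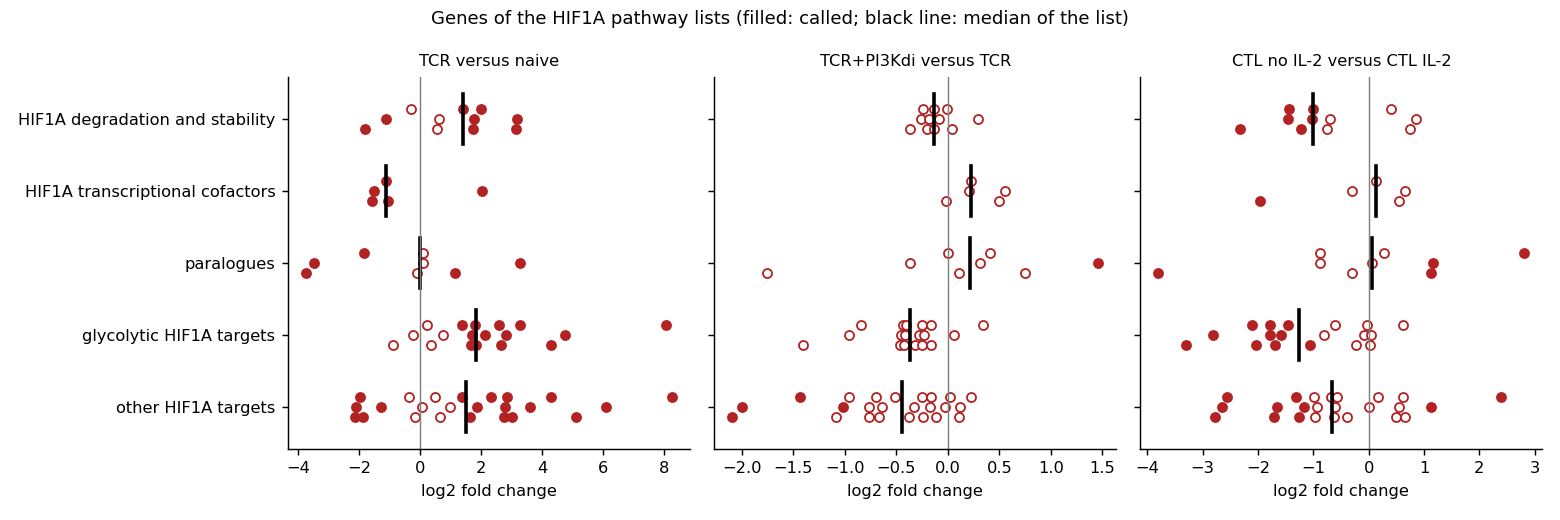
Log2 fold change of each gene of 5 pathway lists in 3 comparisons, with filled points for called genes and a black line for the median of the list; the horizontal axes differ between panels. In the panel for PI3Kdi the medians of both target lists lie left of 0, at -0.36 and -0.45.

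Replicate 3 was low for many of these genes in both activated groups. It was the lowest library of both groups for 6 of the 10 genes, for 11 of 18 glycolytic targets (61.1%) and for 14 of 24 other targets (58.3%), against 18.1% of 10072 genes with a mean of at least 1 FPKM. For the degradation and stability list it was 1 of 11 genes. The part of these libraries in the results above was not tested beyond the values given without them.

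The genes most like Hif1a over the 9 libraries of the first table, by Pearson r of log2(FPKM + 0.1) among 10071 genes, were Tyro3, Pvrl1, Ddr1, Xbp1 and Cd28, with r of 0.993 to 0.995. These libraries share 3 groups, and 154 genes had r above 0.95, so the ranking is a description. The costimulatory receptor Cd28 had means of 34.2, 117.6 and 237.7 FPKM in naïve, TCR and PI3Kdi cells, and Xbp1, a transcription factor of the unfolded protein response, had 20.8, 56.0 and 97.4 FPKM. In CTL Cd28 went the other way from Hif1a, at 49.0 FPKM with IL-2 and 129.0 FPKM without. Among the 10 genes the r with Hif1a was 0.895 for Egln3, 0.638 for Bnip3, 0.238 for P4ha1, -0.814 for Pdk1 and -0.944 for Arnt.

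The labelled cell type was checked by its markers. The summed FPKM of 5 CD8 T cell genes was 3189 to 3482 in naïve, 636.8 to 685.2 in TCR and 810.7 to 952.6 in PI3Kdi libraries, and 971.3 to 1042 and 1876 to 2069 in CTL with and without IL-2. The 4 B cell genes summed to 20.9 to 26.3 FPKM in naïve libraries and at most 7.12 FPKM in activated ones. In CTL without IL-2, the 2 listed myeloid genes, Itgam and Itgax (5 others of that list have no row in the table used here), summed to 7.59 to 9.27 FPKM against 0.50 to 0.72 with IL-2. Of the CD4 T cell genes, Cd4 was at 0.92 to 1.92 FPKM without IL-2 against 0.05 to 0.39 with it. Its log2 fold change was 2.29 (adjusted p = 9.9e-04 in limma). Zbtb7b was at 24.63 to 28.31 against 16.70 to 20.97 FPKM. The B cell gene Cd79b was at 10.8 to 20.6 against 2.74 to 6.30 FPKM, and the NK cell gene Klrb1c at 2.17 to 3.41 against 1.20 to 1.88 FPKM. The 5 activation genes (Il2ra, Gzmb, Prf1, Ifng and Tbx21) summed to 5393 to 6759 FPKM in TCR, 961.3 to 1204 in PI3Kdi, 9593 to 12540 in IL-2 and 397.0 to 663.7 FPKM in IL-2-free libraries. These genes did not move together. From TCR to PI3Kdi the means went from 3147 to 379.2 FPKM for Gzmb and from 2179 to 32.4 FPKM for Ifng. Prf1 went from 18.1 to 6.07, Tbx21 from 86.4 to 70.4 and Il2ra from 556.7 to 563.4 FPKM. Tbx21 was higher in CTL without IL-2, at 30.9 against 16.6 FPKM. The part of these shifts in the results on oxygen sensing genes was not tested. The lncRNA Gm15283 overlaps Hif1a, Gm46060 overlaps Egln1, and the pseudogene Gm18258 lies within Bnip3; none of these has a row in the first table, and whether the counting used the strand of the stranded kit is not given in the sources used here.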

How the data were processed

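Poly(A) RNA of 15 libraries in 5 groups was sequenced at a core facility. The paper places the libraries of the first table on the same lane, which also held an unpublished dataset that it does not name. According to the methods and the submitters' processing notes, reads were aligned to mm10 with STAR 2.5.2b and counted per RefSeq gene with Subread 1.5.1, low genes were removed by filterByExpr, and TMM-normalised counts from edgeR were divided by summed exon length. The authors deposited the result as FPKM, rounded to 2 decimals. The paper describes these steps for the first table, and for CTL the notes name the same tools. Of the values in the first table, 1039 blank cells (1.025%) were read as 0.

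Libraries were grouped by title. The treatment labels of CTL replicates 2 and 3 with IL-2 name other interleukins. Read totals were not given. The spacing of FPKM values, with exon lengths of another annotation, gave roughly 11.2 to 14.4 M fragments per library in the first table and 9.6 to 12.6 M in CTL, and at least about 34 fragments for each of the 10 genes, which covers counting error only.

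Values of log2(FPKM + 0.1) were fitted with limma 3.58.1 in R 4.3.3 with an intensity trend, 9 libraries in a first fit and 6 in a second, and Benjamini-Hochberg adjustment over all genes. On simulated data 95.5% to 97.5% of 200 changed genes were recovered. Recovery at the fold change and standard error of any single gene named here was not tested. Tables and figures used Python 3.11.15, pandas 2.3.3, numpy 2.4.6 and matplotlib 3.10.9. Each pool was divided between the 3 groups of the first table per the labels, and deviations of same-numbered libraries correlated at 0.203 to 0.506 for PI3Kdi against TCR and 0.123 to 0.257 in CTL, across genes. The correlation was -0.181 to 0.226 for TCR against naïve. Alternatives were pseudocounts of 1 and 0.01, a mean of at least 1 FPKM, median scaling, the replicate block, no trend, only the groups compared and leaving out each replicate, and, chosen after seeing the data, leaving out replicate 3 of the TCR activated cells. That last fit kept replicate 3 of the other groups, from the same pool, so its groups were not matched by pool.

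The 10 genes and the lists were chosen with earlier results of these data known. Besides the 10 genes, names were drawn from up to 2 called rises and 2 called falls with the largest fold change per list and comparison, and from the 5 genes most correlated with Hif1a. Not every gene that met this rule is named. Siah2 is given with PI3Kdi although it was not called in that comparison. Ndrg1 and Ankrd37 were named after their values were seen. A gene of the lists is not reported here by name.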

Additional observations from a re-analysis of the deposited data

How the results depend on the processing

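With the pairing of replicate numbers as a block, 39 of the 40 fold changes of the 10 genes kept their direction and side of the threshold. The exception was Bnip3 for PI3Kdi against naïve cells (1.41, adjusted p = 0.0091 in limma, against 0.074 without the block). It was also called in a fit of only the groups compared (adjusted p = 0.0085). Over all alternatives 392 of 410 fold changes of the 10 genes kept both direction and call.

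For PI3Kdi against TCR, a pseudocount of 1 gave 311 called mRNA in place of 579. Leaving out libraries gave 323 to 601 called mRNA and 0 to 2 of the 10 genes, the lowest values without replicate 2 and the 601 without replicate 3 of the TCR activated cells alone. Bnip3 was called for PI3Kdi against naïve cells without replicate 3 (1.72). Directions turned for 4 genes, all with adjusted p above the threshold, when replicates were left out. The log2 fold change ran from -0.033 to 0.21 for Egln1 (TCR against naïve, negative without replicate 1 and without replicate 2), from -0.14 to 0.12 for Vhl (PI3Kdi against TCR), from -0.046 to 0.14 for P4ha1 and from -0.016 to 0.24 for Hif1an (both PI3Kdi against naïve). Fewer samples enter these fits, and the cause was not tested.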
